A study of Mus musculus with 12 samples.

Results

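The proteasome genes described here are the genes of the deposited FPKM matrix whose symbol starts with Psma, Psmb, Psmc, Psmd or Psme followed by a digit, with the immunoproteasome genes Psmb8, Psmb9 and Psmb10 set apart. The rule found 43 of 24481 genes, measured through 51 transcripts, and 41 of them passed the filter on low values. The rule itself uses no measured value. The cells were CD4 T effector cells reactive to an insulin peptide, recovered from the pancreatic islets and the spleen of NOD.scid mice, a strain with no T or B cells of its own. There were 4 groups of 3 RNA-seq libraries: islet Y16A, islet WT, spleen Y16A and spleen WT. Islet cells are compared with spleen cells, and cells of Y16A origin with cells of WT origin.

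Y16A origin cells came from female NOD.InsY16A Tg donors, which carry an insulin transgene with a changed T cell contact residue, and WT origin cells came from female NOD donors. NOD mice develop autoimmune diabetes. All donors were 6 to 8 weeks old and had been immunised with insulin C19A, and their splenocytes were cultured for 2 weeks with 10 µM peptide and sorted on magnetic columns for CD4 T cells before transfer. Each female recipient of 8 to 10 weeks received T effectors that were over 95% pure with under 1% Foxp3+ cells. All 4 groups therefore share the expansion, the transfer and the NOD.scid host, which still has its own myeloid, red blood and pancreatic cells. There were 6 recipients, 3 per origin, and each gave 1 islet and 1 spleen library. The titles read pancreas for the islet libraries, and the labels name no sort of the recovered cells. The genotype entry of the labels contradicts the titles and the design text, so the groups follow the titles.

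The proteasome is the main protease of the cytosol and nucleus and degrades proteins tagged with ubiquitin. Its barrel-shaped 20S core has outer rings of Psma subunits and inner rings of Psmb subunits, and Psmb5, Psmb6 and Psmb7 carry the chymotrypsin-like, caspase-like and trypsin-like sites. The 19S cap binds ubiquitin chains, removes them and unfolds the substrate with a ring of Psmc ATPases, while Psmd subunits form its scaffold, receptors and lid. Interferon-gamma induces Psmb8, Psmb9 and Psmb10, which replace Psmb5, Psmb6 and Psmb7 in newly built particles, and also the activator PA28, made of Psme1 and Psme2. T effector cells that divide and secrete cytokines are known for a high demand on protein synthesis and degradation.

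The 43 genes held 7 alpha and 7 beta subunits of the 20S core, 6 ATPases and 11 other subunits of the 19S cap, 3 assembly chaperones of the cap (Psmd5, Psmd9 and Psmd10) and 5 activator genes. A further 2 were core subunits of other tissues, Psma8 of testis and Psmb11 of thymus cortex, and 2 were caught by their names alone. That pair is Psmc3ip, a meiotic recombination protein, and Psme3ip1, a partner of the activator Psme3. The name "constitutive" does not describe Psme1 and Psme2, which interferon-gamma induces in other cells. Psma8 was listed at 0 in 12 of 12 libraries, and Psmb11 reached 0.312 FPKM in 1 library and was listed at 0 in the others, so neither could be tested.

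Promoter sequence is shown for 4 genes. Psmb5 and Psmc4 varied most between replicates among the abundant subunits, Psmb6 is the catalytic partner of Psmb5 that varied little, and Psmd11 had the lowest p among the subunits between origins in islets. The 100 bases before a RefSeq start on GRCm38.p6 are written 5′ to 3′ on the strand of the gene. Capitals mark TGACNNNGC, the kind of element that NFE2L1, the factor that raises proteasome genes when proteasomes are inhibited, is known to bind, in Psmb5 and Psmb6. In Psmd11 they mark CCGGAAG, the core bound by ETS factors, on the opposite strand.
Psmb5, chr14:54617996-54618095, minus strand: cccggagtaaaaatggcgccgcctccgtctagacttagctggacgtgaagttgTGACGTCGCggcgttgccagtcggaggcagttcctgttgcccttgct
Psmb6, chr11:70525257-70525356, plus strand: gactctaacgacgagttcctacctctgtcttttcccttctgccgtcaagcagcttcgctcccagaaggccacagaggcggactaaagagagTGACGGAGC
Psmc4, chr7:28050093-28050192, minus strand: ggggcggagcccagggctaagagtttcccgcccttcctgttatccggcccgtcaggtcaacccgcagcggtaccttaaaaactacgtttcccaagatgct
Psmd11, chr11:80428515-80428614, plus strand: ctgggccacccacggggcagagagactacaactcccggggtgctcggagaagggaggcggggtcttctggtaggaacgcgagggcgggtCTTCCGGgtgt
For Psmb6 the start used lies inside the gene, whose RefSeq boundary is at 70525324, and the marked TGACGGAGC lies after that boundary. Neither motif was found in the 100 bases of Psmc4. RefSeq promoters, from 250 bases before to 50 after a start, were at hand for 36 of the 43 genes, and a gene counted once whichever of its starts held the motif on either strand. TGACNNNGC was found in 6 of 36 (16.7%), against 16.7% of the tested genes with a promoter. CCGGAAG was found in 14 of 36 (38.9%), against 22.0% of tested genes and 9.93% of all genes with a promoter. CCAAT stood in 15 (41.7%), against 43.8% of tested genes, and TATAAA in 3 (8.33%), against 9.29%. These are matches of letters and not shown to be binding sites.

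Libraries held 4.46 to 8.76 M mapped fragments, as estimated from the smallest steps of the FPKM values, and listed 7462 to 8685 genes at 1 FPKM or more. FPKM scales fragments by transcript length and by the mapped fragments of the library, which allows levels to be compared between genes. The summed FPKM ran from 163868 to 342434 and was higher in the islet than in the spleen library of each mouse. Log2 changes are therefore given relative to the median gene, and some comparisons are made within a library. Statements that FPKM values overlap or not use plain FPKM. The CD4 T cell markers (7 of 8 listed genes found) summed to 2615 to 3408 FPKM in islet Y16A, 2141 to 2954 in islet WT, 1797 to 2317 in spleen Y16A and 1561 to 2357 in spleen WT libraries. Acinar markers (10 of 10 found, Amy2a5 at 0 throughout) summed to 1017 to 2713 FPKM in islet Y16A and 1109 to 3976 in islet WT, against 2.58 to 5.86 in spleen Y16A and 2.16 to 2.64 in spleen WT, where Cela2a and Cpa1 were at 0. Neutrophil markers (5 of 5 found) summed to 0 to 2.41 FPKM in islet Y16A and 0 to 1.22 in islet WT, with S100a9, Camp and Ltf at 0, against 95.1 to 179.9 in spleen Y16A and 96.0 to 239.8 in spleen WT. Erythroid markers (5 of 5 found) summed to 0 to 35.5 FPKM in islet Y16A and 1.47 to 23.0 in islet WT, with Alas2 at 0 in islet Y16A, against 39.7 to 2374 in spleen Y16A and 346 to 1428 in spleen WT. Macrophage markers (6 of 6 found) summed to 68.3 to 111 FPKM in islet Y16A and 37.5 to 182 in islet WT, against 156 to 646 in spleen Y16A and 172 to 262 in spleen WT. Endocrine markers (7 of 7 found) summed to 0.396 to 54.0 FPKM in islet Y16A and 26.1 to 1082 in islet WT, against 1.48 to 8.82 in spleen Y16A and 0 to 1.04 in spleen WT, with Sst, Iapp and Chga at 0 in spleen. CD8 T cell markers summed to 1.69, 21.5 and 3.61 FPKM in islet Y16A replicates 1 to 3. Their sums were 0.157 to 2.82 in islet WT, 0.797 to 2.11 in spleen Y16A and 0.379 to 2.97 in spleen WT. B cell markers summed to 0.375 to 1.43 FPKM in islet Y16A, 0.418 to 7.98 in islet WT, 0 to 1.93 in spleen Y16A and 0.156 to 4.65 in spleen WT. Cells of these other types also make proteasomes, and their part in the differences between tissues, or between origins in islet, was not tested. In such bulk samples, fewer cells of a type and less RNA per cell cannot be told apart.

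As a class the proteasome genes took a narrow share of the measured RNA. The 43 genes made up 1.43%, 1.28% and 1.25% of the summed FPKM in islet Y16A, 1.34%, 1.13% and 1.22% in islet WT, 1.45%, 1.34% and 1.34% in spleen Y16A and 1.28%, 1.31% and 1.28% in spleen WT libraries. The tissues overlapped in this share in both origins. The origins overlapped in islet but not in spleen, where the lowest Y16A share (1.34%) stood above the highest WT share (1.31%). In spleen Y16A replicate 1, Psmb5 alone gave 523 of the 3356 FPKM of these genes, against 51.2 and 59.7 FPKM in replicates 2 and 3. The separation in spleen thus rests in part on 1 gene in 1 library, and it was not tested. Mean levels over the 12 libraries exceeded 100 FPKM for 12 of the 43 genes. The median over the 20S alpha genes was 111 FPKM and over the 20S beta genes 132, against 61.1 for the 19S ATPases and 28.2 for the other 19S subunits.

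**Figure D1:**
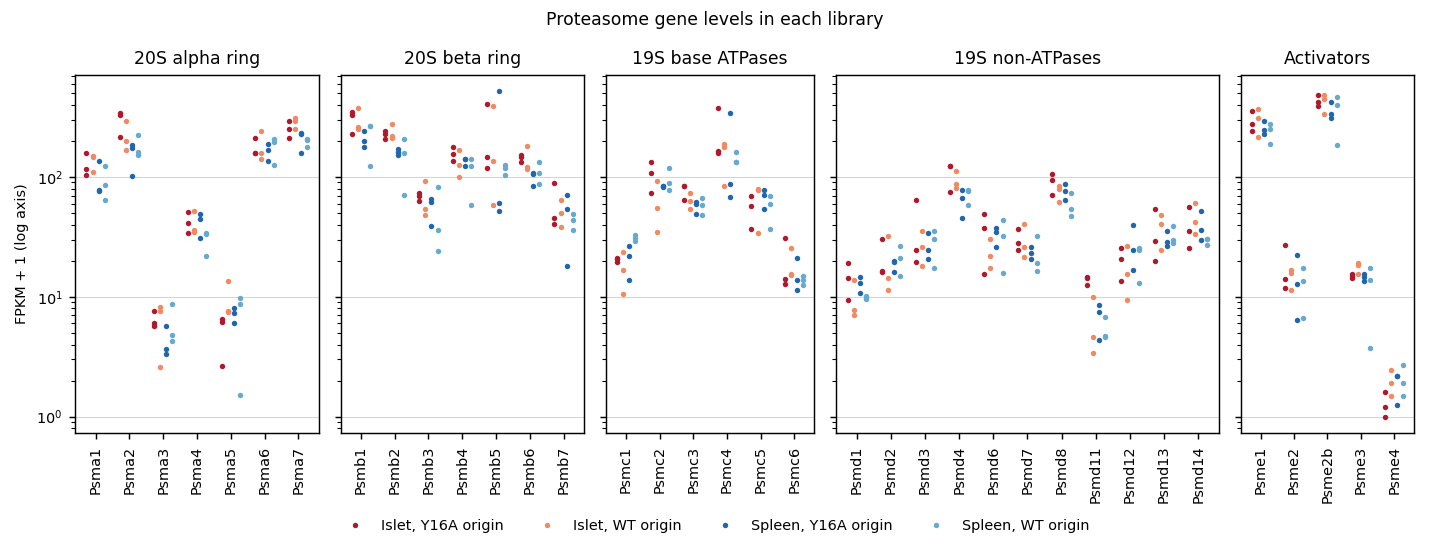
FPKM + 1 on a log axis for the genes of the 20S core, the 19S cap and the activators, 1 point per library, coloured by group. Psma3 and Psma5 lie far below the other 12 core genes, and Psme2b far above Psme2.

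Core genes differed widely in level although each subunit takes part in the same particle. Psmb1, a structural beta subunit, was the highest at a mean of 254.8 FPKM (range 123 to 372), followed by the alpha subunit Psma7 at 234 (158 to 308) and Psma2 at 212 (101.5 to 338). These 3 ranges overlap. At the other end stood the alpha subunits Psma3, at a mean of 4.69 FPKM (1.59 to 7.69), and Psma5, at 6.13 (0.506 to 12.7). They were the 2 lowest of the 14 core genes in 12 of 12 libraries, and no other core gene fell under 17.0 FPKM in any library. Psma5, Psmb5, Psmb6 and Psmb7 have processed copies in RefSeq that bear the name of the gene with the ending -ps. Copies under other names were not searched for, so their absence for Psma3 or another core gene is not shown. How the deposited processing divided reads between near-identical sequences is not given in the sources used here, so the levels of genes with copies are uncertain.

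In the 19S cap the ATPase genes had mean levels from 15.8 FPKM for Psmc6 to 172 for Psmc4. The other cap genes ran from 7.00 FPKM for Psmd11, a lid scaffold subunit, and 10.6 for Psmd1, a base scaffold subunit, to 74.0 for Psmd8, a lid subunit, and 82.7 for Psmd4, a ubiquitin receptor. Psmd14, the deubiquitinase that cuts ubiquitin chains off the substrate, had a mean of 37.2 FPKM (24.4 to 59.5). The 3 assembly chaperones were low to moderate, with 4.42 FPKM for Psmd9, 15.1 for Psmd5 and 21.3 for Psmd10. Psmd4 was the sum of 2 transcripts whose split moved from library to library, the first being listed at 0 in 4 libraries and the second in 1, while the sum stayed between 44.4 and 123 FPKM. The second Psma6 transcript was the only one detected in 11 libraries, and both appeared in spleen WT replicate 1.

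Activator genes spanned the widest range. Psme1, a subunit of PA28, had 357, 276 and 239 FPKM in islet Y16A, 213, 307 and 371 in islet WT, 229, 244 and 291 in spleen Y16A and 186, 275 and 251 in spleen WT. Psme2, its partner, had only 5.36 to 26.2 FPKM, whereas Psme2b, a near-identical copy, had 183 to 482. Fragments of the 2 genes cannot be separated with certainty, and their sum was 508, 402 and 438.5 FPKM in islet Y16A, 348, 466 and 496 in islet WT, 312, 349 and 444 in spleen Y16A and 188, 480.4 and 411 in spleen WT. Psme3, the nuclear PA28 subunit, had 13.3, 14.4 and 13.9 FPKM in islet Y16A, 14.4, 17.5 and 18.0 in islet WT, 14.6, 12.6 and 13.8 in spleen Y16A and 2.74, 12.9 and 16.4 in spleen WT. Psme4, which encodes the activator PA200, was at most 1.67 FPKM and reached 1 FPKM in 4 libraries. Each of these activator genes had overlapping tissues in both origins.

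Replicate spread was moderate for most of these genes and large for a few. Within groups, the SD of log2(FPKM + 1) had a median of 0.413 over the 38 members with a mean above 5 FPKM, against 0.554 over all 4224 such genes. Psma7 (0.218) and the ATPase Psmc3 (0.219) varied least, both at or under the 1st percentile of those genes. Psmb5 varied most among true subunits, at 1.25, the 95.5th percentile, and Psmc4 had 0.793.

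**Figure D2:**
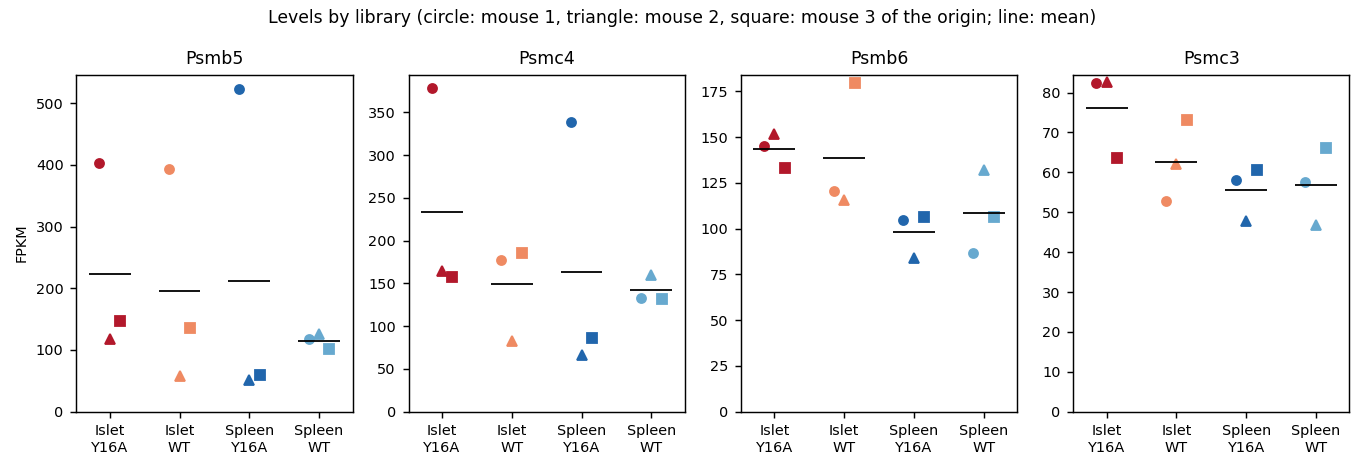
FPKM of Psmb5, Psmc4, Psmb6 and Psmc3 in each library by group, with the mean as a line and the mouse as the symbol. Psmb5 lies at 393 to 523 FPKM in replicate 1 of 3 groups and at 51.2 to 147 in all other libraries, while Psmb6 stays between 83.8 and 179 FPKM and Psmc3 between 46.8 and 82.7.

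Psmb5 had 404, 118 and 147 FPKM in islet Y16A, 393, 57.6 and 135 in islet WT, 523, 51.2 and 59.7 in spleen Y16A and 118, 126 and 102 in spleen WT libraries. Replicate 1 of 3 groups stood 3.05, 4.08 and 9.43 times above the mean of the other replicates of its group, and replicate 1 of spleen WT did not (1.03 times). Psmb5 was thus high in both tissues of 1 mouse of Y16A origin and in the islet but not the spleen library of 1 mouse of WT origin. The estimated fragments behind these Psmb5 values were 369 to 2096 per library. Psmc4 had 379, 164 and 158 FPKM in islet Y16A, 177, 83.2 and 186 in islet WT, 339, 66.6 and 86.0 in spleen Y16A and 134, 160.2 and 132 in spleen WT. It was high in the same mouse of Y16A origin, by 2.36 times in islet and 4.44 times in spleen. Psmb6 had 145, 152 and 133 FPKM in islet Y16A, 121, 116 and 179 in islet WT, 105, 83.8 and 106 in spleen Y16A and 86.9, 132 and 106 in spleen WT, with no library standing apart. Among the 41 tested genes, Psmb5 and Psmc3ip had their highest value in replicate 1 in 3 of 4 groups. For Psmc4 this held in 2 groups, as it did for Psma1, Psmb2, Psmc5, Psmd2, Psmd3, Psmd7, Psmd8, Psmd9, Psmd12 and Psme3ip1. The share of all genes with this trait was not counted.

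No proteasome gene was called between islet and spleen cells in either origin. In limma on log2(FPKM + 1), 0 of 41 members were called at an adjusted p under 0.05 in Y16A origin cells, where 1.17% of all 10102 tested genes were called. In WT origin cells 0 of 41 were called against 0.812%, and over the mean of both origins 0 of 41 against 2.30%. With no adjustment, p was under 0.05 for 3 of 41 in Y16A (10.2% of all genes), 4 in WT (8.68%) and 7 for the mean of both (13.6%). From each log2 change below, the median over genes with a mean above 5 FPKM was subtracted, which was 0.33 in Y16A, 0.16 in WT and 0.25 for their mean, while the p values belong to the change before this subtraction. The member median was -0.04 in Y16A, 0.15 in WT and 0.05 for the mean of both origins, against -0.09, -0.06 and -0.08 over all genes tested.

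The 7 genes with the lowest p between tissues were all core or cap subunits with higher islet values. Psmb2, a structural beta subunit, had 242, 229 and 208 FPKM in islet Y16A and 220.1, 212 and 277 in islet WT, against 171, 152 and 159 in spleen Y16A and 70.2, 208 and 159 in spleen WT. In plain FPKM it was higher in islet than in spleen in 6 of 6 mice, as were Psmd7 and Psmd8. Its lowest islet value (207.9) stood just over its highest spleen value (207.7). In mouse WT-2 the log2 difference of Psmb2 was 0.03, under the median change of 0.16 in WT origin. Psmb2 as a share of each library was not compared. Its relative log2 change was 0.41 (SE 0.23) with an adjusted p of 0.197 in limma. Psmb2 was the single member of 41 (2.44%) whose 6 islet and 6 spleen values did not overlap with islet higher. The same held for 1.67% of all tested genes and for 135 of the 4224 with a mean above 5 FPKM. No member had islet lower throughout (0.297% of all).

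Psma2, an alpha subunit, had 338, 331 and 214 FPKM in islet Y16A and 166, 199 and 295 in islet WT, against 101.5, 172 and 184 in spleen Y16A and 153, 224 and 162 in spleen WT. The Y16A tissues did not overlap and the WT tissues did. Its relative log2 change over both origins was 0.37 (SE 0.22, limma adjusted p 0.206). Psmd4, the ubiquitin receptor, had 122, 73.6 and 123 FPKM in islet Y16A and 80.4, 87.1 and 110.2 in islet WT, against 44.4, 76.3 and 65.6 in spleen Y16A and 57.9, 76.5 and 75.8 in spleen WT. In WT origin its tissues did not overlap, and over both origins the relative log2 change was 0.33 (SE 0.22, limma adjusted p 0.246). The 4 other genes were Psma7, Psmb1, Psmb6 and Psma1, at relative log2 changes of 0.16 to 0.26 and limma adjusted p of 0.309, 0.316, 0.327 and 0.336.

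**Figure D3:**
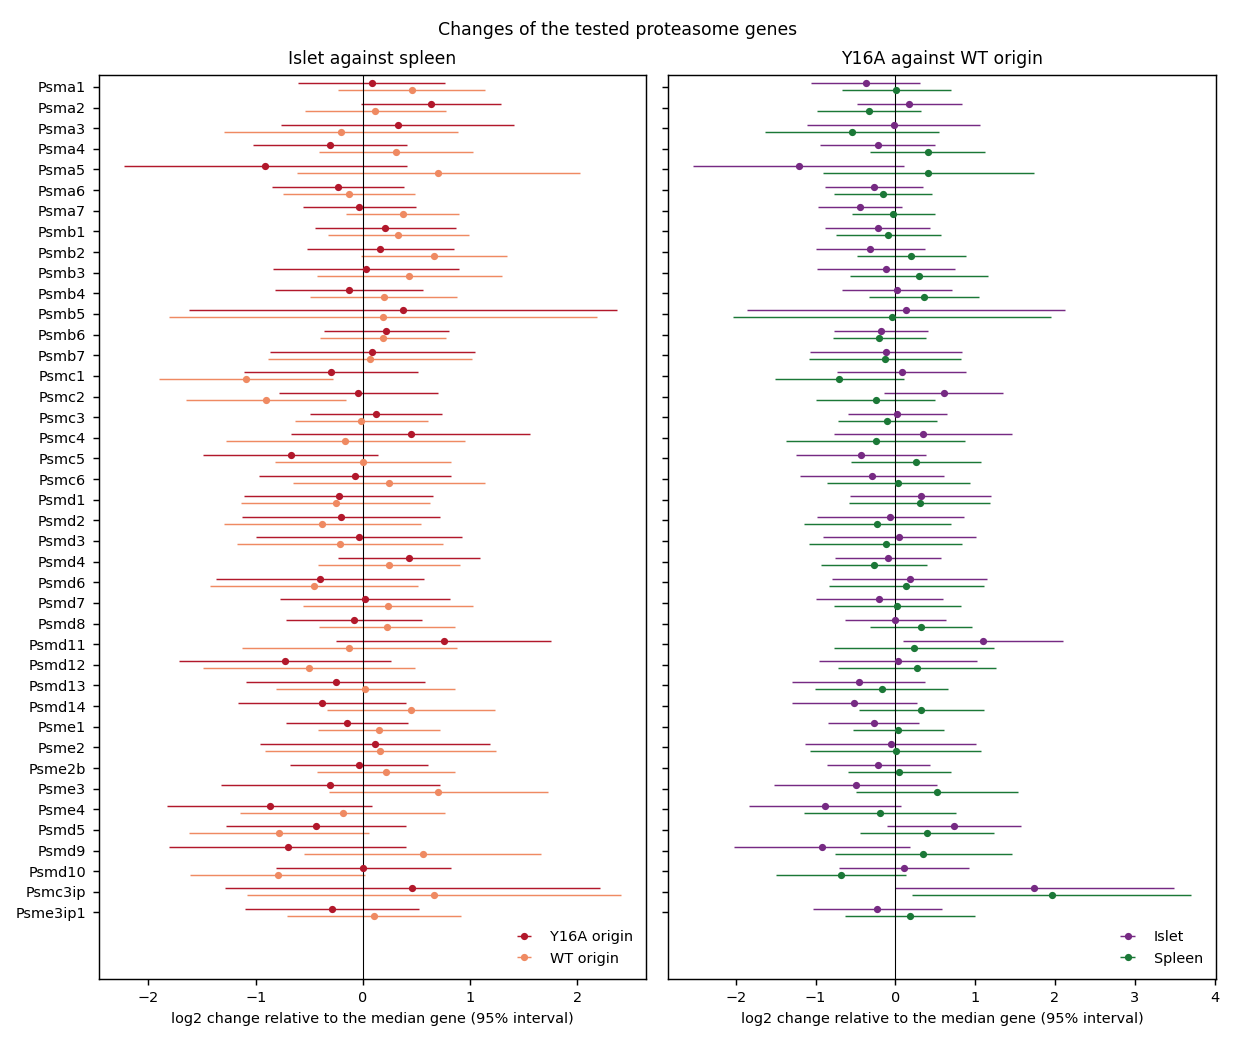
Log2 change relative to the median gene with its 95% interval from limma for the 41 tested genes, islet against spleen on the left for each origin and Y16A against WT on the right for each tissue. Most intervals cross 0 and none of the 41 genes passed the adjusted threshold in any panel.

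By structure, the members differed in how many lay above the median gene, with no test of this difference. All 7 beta genes had islet values above the median gene's change in WT origin and over both origins, and 6 of 7 in Y16A origin, with a median relative log2 change of 0.23 over both origins and 0 of 7 called. The 7 alpha genes had 4 above the median gene (median 0.05), the 6 ATPases 3 (median -0.15), the 11 other cap subunits 5 (median -0.12) and the 3 assembly chaperones 0 (median -0.40). Over all tested genes 46.1% lay above it in WT origin, 43.1% in Y16A origin and 42.6% over both. Of the 4224 genes with a mean above 5 FPKM, which include all 7 beta genes, 2112 lay above it in each comparison. That count is fixed, since the median was taken over those genes. These genes belong to 1 complex and were measured in the same libraries, so they are not independent observations.

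In the single origins Psma2 (Y16A, limma adjusted p 0.223) and Psmb2 (WT, 0.449) had the lowest p. In WT origin the ATPase Psmc1, next after Psmb2, was lower in islet, with 9.62, 15.8 and 22.8 FPKM against 30.01, 31.8 and 28.2 in spleen, which did not overlap (relative log2 change -1.09, SE 0.39, limma adjusted p 0.487). In Y16A origin Psmc1 had 19.8, 18.5 and 19.96 FPKM in islet and 12.9, 25.5 and 20.8 in spleen, which overlap. Groups did not overlap for 6 members higher in islet (14.6%) and 0 lower in Y16A origin, against 14.6% and 3.69% of all genes. In WT origin there were 7 higher (17.1%) and 2 lower (4.88%), against 7.51% and 3.86% of all genes. Most members had a mean above 5 FPKM. Of the 4224 such genes, 888 were higher and 141 lower without overlap in Y16A origin. In WT origin 394 of them were higher and 134 lower.

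Intervals show what size of difference these data allow. For the mean of both origins, 31 of 41 members had a 95% interval within 1 log2 unit of the median gene on either side, and the median SE was 0.27. For Psmb6 the interval was -0.22 to 0.61, for Psmb7 -0.60 to 0.75, for Psme1 -0.41 to 0.40, and for Psmb5, with its spread, -1.14 to 1.69. Within one origin 17 (Y16A) and 14 (WT) of 41 intervals stayed within 1 log2 unit.

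No proteasome gene was called between cells of Y16A and WT origin. In limma 0 of 41 members passed in islet and 0 in spleen, and neither did any of the 10102 tested genes (0% in both), so the members' count is no result about them. Unadjusted p was under 0.05 for 4 members in islet (4.71% of all genes) and 1 in spleen (5.20%). The median change of genes above 5 FPKM was 0.26 in islet and 0.07 in spleen. Relative to it the member median was -0.12 in islet and 0.03 in spleen, against -0.06 and -0.01 over all genes.

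Groups did not overlap in islet for 3 members higher in Y16A (Psmd11, Psmd5 and Psmc3ip, 7.32%) and 2 lower (Psma5 and Psme3, 4.88%), against 7.77% and 2.28% of all genes. In spleen it was 1 member each way (Psmd1 higher, Psmc1 lower), against 5.62% and 3.49% of all genes. Psmd11 had 11.5, 13.4 and 13.7 FPKM in islet Y16A against 2.40, 3.62 and 8.95 in islet WT, with no overlap, and 3.34, 7.61 and 6.47 in spleen Y16A against 3.71, 3.62 and 5.78 in spleen WT, with overlap. Its relative log2 change in islet was 1.10 (SE 0.48, limma adjusted p 0.966). Psmc2, an ATPase, had 106, 132 and 72.8 FPKM in islet Y16A against 54.2, 33.5 and 90.8 in islet WT, which overlap (relative log2 change 0.61, SE 0.35, limma adjusted p 0.966). Psmd5, a chaperone of cap assembly, had 18.999, 21.8 and 13.6 FPKM in islet Y16A against 5.81, 10.4 and 9.87 in islet WT, which do not overlap (0.74, SE 0.40, limma adjusted p 0.966). Psmc3ip, no proteasome subunit, had 23.7, 8.84 and 9.67 FPKM in islet Y16A against 5.46, 5.28 and 0 in islet WT, and 3.68, 12.9 and 6.75 in spleen Y16A against 6.36, 0 and 0 in spleen WT. It had the largest relative log2 change of the members in both tissues, 1.74 in islet and 1.96 in spleen (SE 0.82, limma adjusted p 0.966 and 0.885).

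The authors' deposited table compares islet Y16A with islet WT and lists 43 entries of 40 of these genes, none of which it marks significant among its 91 significant entries of 9815. The lowest member q in the authors' deposited table was 0.411, for Psmc2, at 328 FPKM in islet Y16A and 213 in islet WT. Psmd11 was at 38.3 FPKM in islet Y16A and 15.9 in islet WT in the authors' deposited table. Both examples were higher in islet Y16A, but only 14 of the 43 member entries were (32.6%), against 48.9% of all entries above 0 in both groups. The FPKM of the authors' deposited table are on a higher scale than those of the matrix, so levels are not set across the 2.

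The difference between the tissue changes of the 2 origins was called for 0 of 41 members and 0% of all genes, and 0 members had an unadjusted p under 0.05 there (4.29% of all genes). Only 2 of 41 intervals of this difference stayed within 1 log2 unit, with a median SE of 0.55.

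Levels of the immunoproteasome genes give the constitutive catalytic subunits a scale. Psmb8 averaged 761 ± 94.8 FPKM in islet Y16A, 572 ± 146 in islet WT, 596 ± 75.2 in spleen Y16A and 547 ± 195 in spleen WT (SD, n = 3 each), above its constitutive counterpart Psmb5 in 12 of 12 libraries. Psmb9 had 393, 343 and 348 FPKM in islet Y16A and 303, 343 and 560.2 in islet WT, against 259, 153 and 227 in spleen Y16A and 206, 293 and 264 in spleen WT, also above Psmb6 in every library. Psmb10 had 85.2 to 180.0 FPKM. It stood above Psmb7 in every library, which had 88.8, 39.5 and 44.2 FPKM in islet Y16A, 37.6, 62.9 and 49.2 in islet WT, 17.0, 53.3 and 70.1 in spleen Y16A and 35.4, 47.9 and 43.0 in spleen WT. None of the 3 was called between tissues. Psmb9 came closest, at a relative log2 change of 0.46 and a limma adjusted p of 0.083. Among the alternatives it passed only with the mouse as a block (0.0353) and with median centring (0.0476).

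**Figure D4:**
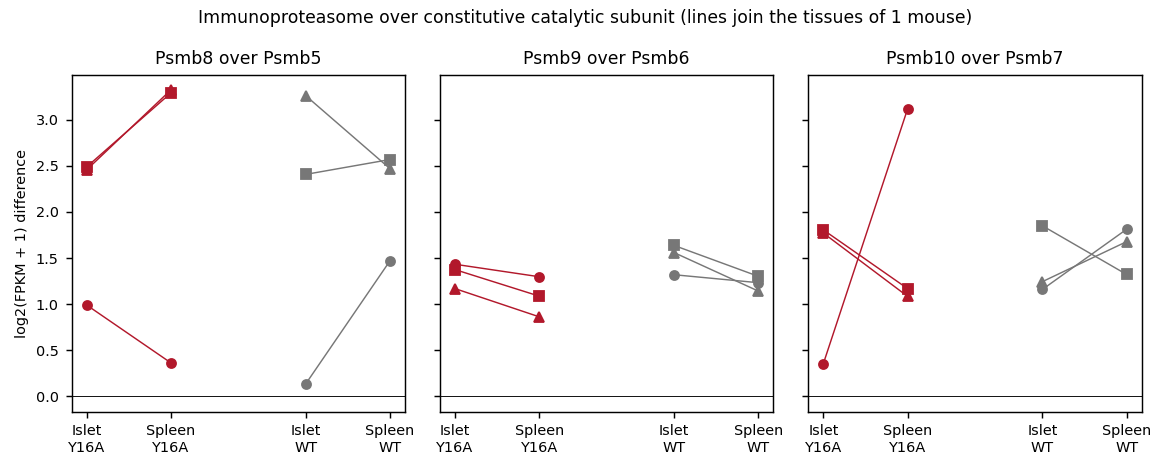
Difference in log2(FPKM + 1) between each immunoproteasome gene and its constitutive counterpart, with a line joining the islet and spleen library of each mouse, for Y16A origin (red) and WT origin (grey). The islet value of Psmb9 over Psmb6 lies above the spleen value in 6 of 6 mice, while the other pairs go both ways.

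The log2(FPKM + 1) difference of Psmb9 and Psmb6 was 1.33 ± 0.14 in islet Y16A and 1.51 ± 0.17 in islet WT, against 1.08 ± 0.22 in spleen Y16A and 1.23 ± 0.08 in spleen WT (SD, n = 3 each). It was higher in islet in 6 of 6 mice, by 0.26 ± 0.13 (SD, n = 6), with a two-sided exact sign-flip permutation p of 0.0312, the smallest that 6 mice allow, and 0.281 after adjustment over 9 tests. Psmb8 to Psmb5 ranged from 0.13 to 3.32 and was higher in islet in 2 of 6 mice (-0.29 ± 0.86, exact permutation p 0.375). Its lowest values, 0.13 to 0.99, belonged to the 3 libraries in which Psmb5 was high. Psmb10 to Psmb7 was higher in islet in 3 of 6 mice (-0.33 ± 1.32, exact permutation p 0.75). Between origins the 6 exact permutation p values ran from 0.3 to 1, where 3 libraries against 3 cannot give less than 0.1.

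Among other genes of the pathway, a cap subunit outside the naming rule was called higher in islet libraries. Sem1, a small lid subunit of the cap, had 739, 637 and 768 FPKM in islet Y16A and 729, 861 and 981 in islet WT, against 514, 351 and 496 in spleen Y16A and 344, 624 and 457 in spleen WT. The tissues did not overlap in plain FPKM, and Sem1 as a share of each library was not compared. It rose by a relative log2 change of 0.53 (SE 0.18, limma adjusted p 0.024 over both origins). Sem1 was called in 13 of 22 alternatives, with limma adjusted p from 0.00717 to 0.217. The call ended without the filter (0.0720), with quantile normalization (0.184, relative log2 change 0.31) and without trend and robust variance (0.217). Leaving out islet Y16A 1 or 3, islet WT 2 or 3, spleen Y16A 2 or spleen WT 3 also ended the call (0.0545 to 0.0766). Acinar marker sums moved with the same contrast, at 1017 to 3976 FPKM over the islet libraries and 2.16 to 5.86 over the spleen libraries, and their part in this call was not tested.

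Of the 7 tested proteasome-associated genes 1 was called between tissues over both origins (Sem1), and of the 6 assembly and regulator genes 0. The 7 genes of the NFE2L1 pathway, 5 shuttle receptors, 9 COP9 signalosome genes and 8 chaperonin genes also had 0 called. Of all tested genes 2.30% were called in this comparison, so a count of 0 in lists this small is no result about them. Pomp, which guides assembly of the core, had 298, 367 and 427 FPKM in islet WT against 130.5, 249 and 209 in spleen WT, which do not overlap (relative log2 change 0.77, SE 0.30, limma adjusted p 0.283). In Y16A origin Pomp had 456, 256 and 286 FPKM in islet and 289, 284 and 410 in spleen, which overlap. Nfe2l1 itself had 2.16 to 13.7 FPKM over the 12 libraries and a relative log2 change of -0.56 between tissues (limma adjusted p 0.797).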

How the data were processed

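Reads were aligned with TopHat 1.0.0, Cufflinks gave FPKM, and the build was mm9, all per the submitters' processing notes; the authors' libraries came from amplified cDNA, per the labels' protocols. The authors' deposited table gives FPKM, p-values and q-values per entry. Of 36285 deposited FPKM entries, 99.68% (36168) matched a RefSeq symbol, and a gene's transcripts were summed. The test was limma 3.58.1 in R 4.3.3 on log2(FPKM + 1), over the 10102 genes that reached 1 FPKM in 3 or more libraries, with 4 group means, a trend and robust variance, and Benjamini-Hochberg adjustment; it was first tested on simulated data. The members, lists and tests were chosen with earlier results of these data known. Members described with statistics were drawn from the 5 with the smallest p per contrast at a mean of 5 FPKM or more, plus a fixed set of catalytic, activator and receptor genes. The rule for the pathway lists allowed called genes and the 2 with the smallest p, of which Sem1, Pomp and Ubb are described, with Nfe2l1 from the fixed set. The spread of Psmb5 and Psmc4 was singled out after their values were seen. Islet and spleen libraries of 1 mouse are paired by the titles, and the deviations of such pairs from their group means correlated at -0.03 to 0.07 across genes. Depths are estimates. Alternatives changed the pseudocount, filter, scaling, variance model, libraries, pairing and transcript choice. 1 item of a pathway list is not reported here.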

Additional observations from a re-analysis of the deposited data

Results flagged for a closer look

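Psmd9, a chaperone of 19S cap assembly, had islet and spleen values that differed in opposite directions in the 2 origins. In Y16A origin mice islet cells had 6.37, 1.15 and 3.87 FPKM against 6.60, 2.48 and 5.37 in spleen cells of the same mice, lower in 3 of 3. In WT origin mice islet cells had 5.13, 6.18 and 5.94 FPKM against 3.20, 4.92 and 1.79 in spleen cells, higher in 3 of 3. The mean paired log2 difference was -0.38 in Y16A and 0.71 in WT origin, a difference of -1.09 between origins. The paired signs themselves were not tested; the limma interaction, which ignores pairing, gave an unadjusted p of 0.161 and an adjusted p of 0.99983. Psmd9 was the single member of 41 with this pattern. The share of all tested genes with this pattern was not counted, so the count is no result about the members.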

How the results depend on the processing

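The count of called members stayed at 0 in every contrast under all 134 alternative counts, including each library left out in turn (lowest and highest 0 and 0), the mouse as replicate block (0 of 41 in each tissue contrast), other pseudocounts, no filter, other scalings and, added after seeing the data, without replicate 1 of every group and with Psme2 added to Psme2b. Calls over all genes for the mean of both origins were 232, against 140 without the filter and 151 with the highest transcript per gene. Members with unadjusted p under 0.05 there numbered 7, and 3 to 9 with single libraries left out (3 without islet Y16A 1, islet Y16A 2 or spleen Y16A 2). They numbered 1 without trend and robust variance and 1 without replicate 1 of every group, and 6 or 7 under the other alternatives. Without replicate 1 of every group, Psmb5 had a relative log2 change of 0.97 (adjusted p 0.254) between tissues in Y16A origin and -0.49 (0.916) in WT origin, against 0.37 and 0.18 with all libraries. Ubb between tissues in Y16A origin had an adjusted p of 0.260, and 0.0286 with the replicate block, which also changed the call of Psmb9 and of no other gene named here. The block is not estimable for the origin contrasts, since each mouse has 1 origin.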
